A study of Rattus norvegicus with 12 samples.

Results

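5S and 5.8S rRNA are the small RNAs of the large subunit of the cytosolic ribosome, and their genes lie in the nuclear genome in many copies. The count table of this study lists 170 genes named 5S_rRNA and 33 named 5_8S_rRNA, and these 203 copies, each kept under its own Ensembl identifier, are described here out of 30560 genes in all. Membership rests on the gene name and not on a copy's values, but the names were chosen with earlier results of these data known.

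5S rRNA is transcribed by RNA polymerase III from repeated genes, binds the ribosomal proteins Rpl5 and Rpl11, and joins the large ribosomal subunit. 5.8S rRNA is cut out of the precursor that RNA polymerase I makes, and pairs with 28S rRNA in the same subunit. Vertebrate genomes also hold many scattered copies and fragments of both genes. Mitochondrial ribosomes are built from RNAs of the mitochondrial genome, and imported 5S rRNA has been described in mitochondria of human cells, where rhodanese (Tst), Mrpl18 and the polynucleotide phosphorylase Pnpt1 have been linked to its import or to RNA import in general.

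The libraries came from the red inner part of the gastrocnemius, a calf muscle, of 6 wild-type male Wistar Kyoto rats aged 9 weeks. One group of 6 libraries was made from mitochondria that had been pulled out of fresh tissue with antibodies and then digested with RNase A and proteinase K, starting from 10 ng of RNA. The other group of 6 was made from whole, snap-frozen muscle of the same animals, without those enzymes, starting from 50 ng. Ribosomal RNA was depleted in both kinds of library, so no count below is the level of 5S or 5.8S rRNA in the tissue.

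The mitochondria libraries held 720111 to 1785865 counts and the muscle libraries 24309444 to 32055355. Genes of the mitochondrial genome took 12.9% to 51.5% of counts in mitochondria libraries and 26.4% to 35.9% in muscle libraries, so levels are given as nuclear CPM, the counts of a gene scaled to 1000000 counts on nuclear genes. A library held 573903 to 1055433 counts on nuclear genes in mitochondria and 15579407 to 22116750 in muscle. Muscle fibre markers summed to 748 to 1209 nuclear CPM in mitochondria libraries and 132824 to 157642 in muscle libraries, with all 7 of 7 lower in mitochondria. Genes of nose and inner ear, mostly olfactory receptors, had 13491 to 14725 nuclear CPM in mitochondria and 9.88 to 13.7 in muscle. In that list 950 of 951 tested genes were higher in mitochondria, and 1000 of its 1117 genes had no count in muscle and 10 had none in mitochondria. Markers of leukocytes summed to 288 to 381 in mitochondria and 37.2 to 67.7 in muscle, those of adipocytes to 80.8 to 103 in mitochondria and 0.0960 to 4.70 in muscle, and those of endothelium to 312 to 350 in mitochondria and 356 to 701 in muscle. Markers of Schwann cells summed to 113 to 143 in mitochondria and 22.8 to 142 in muscle, and those of red blood cells to 53.1 to 76.3 in mitochondria and 39.0 to 148 in muscle. The part of this spread of counts over the nuclear genome in the results on rRNA copies was not tested. In whole muscle, fewer cells of a type and less RNA per cell cannot be told apart. The mitochondria libraries were made from isolated organelles, so their marker sums do not measure cell content.

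Taken copy by copy, the 5S genes were rarely counted. Of the 170 copies, 131 had no count in any of the 12 libraries, 39 were counted in mitochondria and 7 in muscle. All 7 copies with muscle counts also had counts in mitochondria. In the 6 mitochondria libraries together, 13 copies reached 10 or more counts and 26 had 1 to 9, and the highest had 22. Most 5.8S genes were counted: 31 of 33 were counted in mitochondria and 6 in muscle, all 6 of them also in mitochondria, and 26 reached 10 or more counts in mitochondria against 2 in muscle. Mitochondria libraries also counted more of all 30560 genes, 27803 to 28708 a library against 16931 to 17776 in muscle. No label or header says how reads that match several places were counted. A copy at 0 may therefore have no RNA or only reads that it shares with another copy, and counts of near-identical copies may be split among them.

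**Figure D1:**
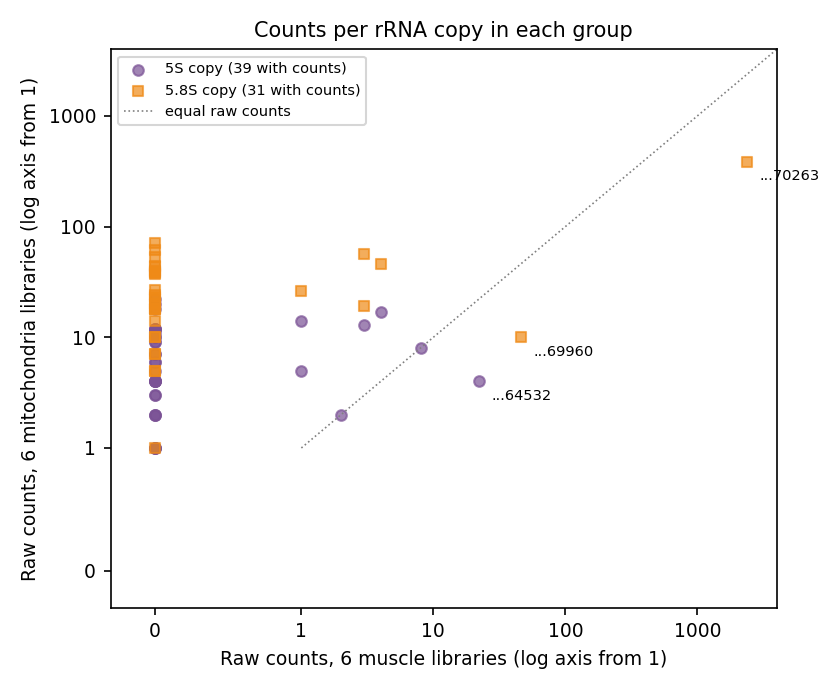
Raw counts of each rRNA copy summed over 6 mitochondria libraries (vertical axis) and over 6 muscle libraries (horizontal axis), both on a log scale from 1, for the 39 5S and 31 5.8S copies with any count. Most copies sit at 0 on the muscle axis, and 3 copies, marked by the last digits of their identifiers, lie below the line of equal raw counts.

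Summed over all 170 copies, 5S genes held 38, 72, 49, 44, 48 and 40 counts in the mitochondria libraries of animals 1 to 6, against 9, 3, 3, 12, 9 and 5 counts in the muscle libraries of the same animals. As nuclear CPM these were 66.2, 68.2, 63.4, 50.8, 55.4 and 47.0 in mitochondria and 0.407, 0.144, 0.145, 0.770, 0.465 and 0.286 in muscle. The groups did not overlap, and the lowest mitochondria library lay far above the highest muscle library. The means were 58.5 ± 8.71 in mitochondria and 0.370 ± 0.236 in muscle (SD, n = 6 each), a ratio of 158 that rests on 291 counts in mitochondria and 41 in muscle. Without the copy that held 53.7% of the muscle counts, the log2 ratio was 8.44 in place of 7.31. A sum over copies is given here as a description, with no test.

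The counts of 5S in mitochondria were spread thinly over many copies. The most counted, ENSRNOG00000040652, had 3, 3, 5, 6, 3 and 2 counts in the mitochondria libraries and none in muscle, which was 7.56% of all 5S counts in mitochondria. ENSRNOG00000034938 had 2, 7, 5, 3, 1 and 2 counts in mitochondria and none in muscle, and ENSRNOG00000069982 had 1, 6, 3, 4, 0 and 4 and none. These 3 copies were at least 171-fold, 155-fold and 140-fold higher in mitochondria on the nuclear CPM scale, with the muscle floor set at 3 counts over the group. ENSRNOG00000058198 had 17 counts in mitochondria, at least 1 in each library, and 4 in muscle, from 3 animals. ENSRNOG00000065316 had 14 counts in mitochondria and 1 in muscle, a ratio of 326 (95% exact interval 49.6 to 13774, counting error only).

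A few 5S copies carried most of the little that muscle held. ENSRNOG00000064532 had 0, 1, 3, 0, 0 and 0 counts in mitochondria and 3, 1, 0, 7, 7 and 4 counts in muscle, and was the only 5S copy with more raw counts in muscle. Its levels overlapped between the groups, at 0.805 ± 1.55 nuclear CPM in mitochondria and 0.204 ± 0.177 in muscle (SD, n = 6 each). ENSRNOG00000034316 had 8 counts in each group, or 1.57 ± 0.877 nuclear CPM in mitochondria and 0.0756 ± 0.0966 in muscle (SD, n = 6 each). ENSRNOG00000065549 had 13 counts in mitochondria and 3 in muscle, a ratio of 101 (27.7 to 552), and ENSRNOG00000064592 had 2 in mitochondria and 2 in muscle, a ratio of 23.3 (1.69 to 321).

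The 5.8S genes behaved as 1 leading copy and 32 others. ENSRNOG00000070263 had 31, 58, 20, 140, 113 and 25 counts in the mitochondria libraries of animals 1 to 6, against 678, 177, 300, 555, 344 and 327 counts in their muscle libraries. It held 21.5%, 25.8%, 18.3%, 44.0%, 47.9% and 14.8% of all 5.8S counts in mitochondria and 98.3%, 95.7%, 99.7%, 98.9%, 96.9% and 94.5% in muscle. The shares did not overlap: the highest mitochondria library had a 95% Wilson interval of 41.6% to 54.2%, and the lowest muscle library one of 91.6% to 96.5%, for counting error only. The group means were 28.7% ± 13.9 in mitochondria and 97.3% ± 1.99 in muscle (SD, n = 6 each).

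**Figure D2:**
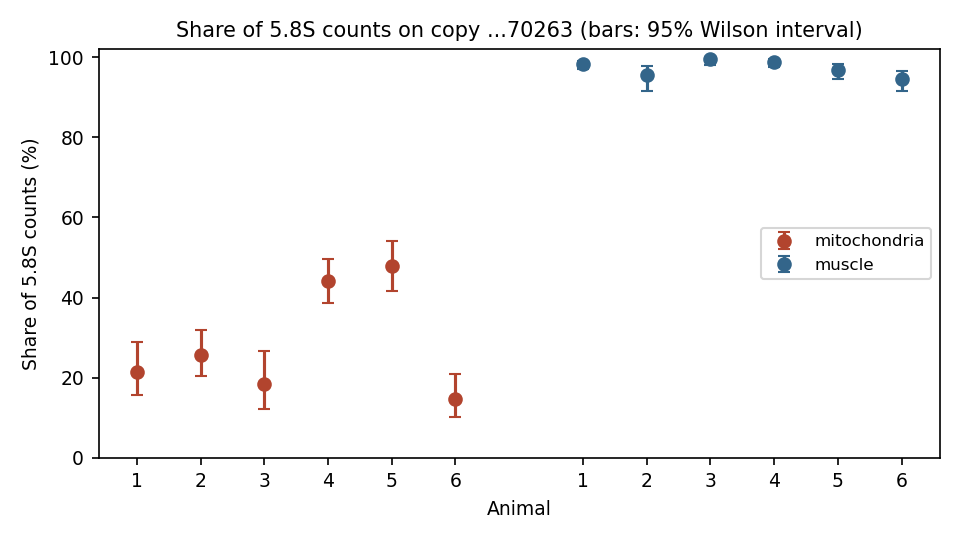
Share of all 5.8S counts that fell on copy ENSRNOG00000070263 (vertical axis, percent) in the mitochondria and the muscle library of each animal (horizontal axis), with 95% Wilson intervals. The muscle libraries lie between 94.5% and 99.7%, and the mitochondria libraries lie between 14.8% and 47.9%.

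In nuclear CPM, ENSRNOG00000070263 stood at 54.0, 55.0, 25.9, 162, 130 and 29.4 in mitochondria and 30.7, 8.50, 14.5, 35.6, 17.8 and 18.7 in muscle. Mitochondria were higher in 6 of 6 animals, by 1.57-fold (animal 6) to 7.34-fold (animal 5), although the ranges of the groups overlapped. The means were 76.0 ± 56.4 in mitochondria and 21.0 ± 10.2 in muscle (SD, n = 6 each), a difference of 55.1 (two-sided exact permutation test over 924 groupings, p = 0.0130). The sign-flip test over pairs, also exact, gave p = 0.03125, the smallest it can give. The direction depends on the scaling. With TMM factors the log2 fold change was -0.27 ± 0.31 (SE, edgeR's quasi-likelihood test, adjusted p = 0.404), and with total counts it was 1.73 ± 0.24 (edgeR adjusted p = 4.63e-10). With the animal as a replicate block, TMM gave -0.37 (edgeR adjusted p = 0.0320), and without the mitochondria library of animal 4 it gave -0.67 (edgeR adjusted p = 0.0436), both called lower. Over all 12 libraries, the median of all genes tested was 2.51 with TMM and 4.61 with total counts. The copy lay below that median on both scales.

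The other 32 copies had 164 ± 33.9 nuclear CPM in mitochondria, from 115 to 205, and 0.503 ± 0.341 in muscle, from 0.0483 to 1.09 (SD, n = 6 each). The groups did not overlap, and the ratio of means was 327, on 814 counts in mitochondria and 57 in muscle. Of the muscle counts 46 fell on a single copy, ENSRNOG00000069960, which had 2, 1, 0, 4, 2 and 1 counts in mitochondria and 8, 7, 1, 4, 11 and 15 in muscle. Its levels were 2.09 ± 1.73 nuclear CPM in mitochondria and 0.405 ± 0.279 in muscle (SD, n = 6 each) and overlapped.

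**Figure D3:**
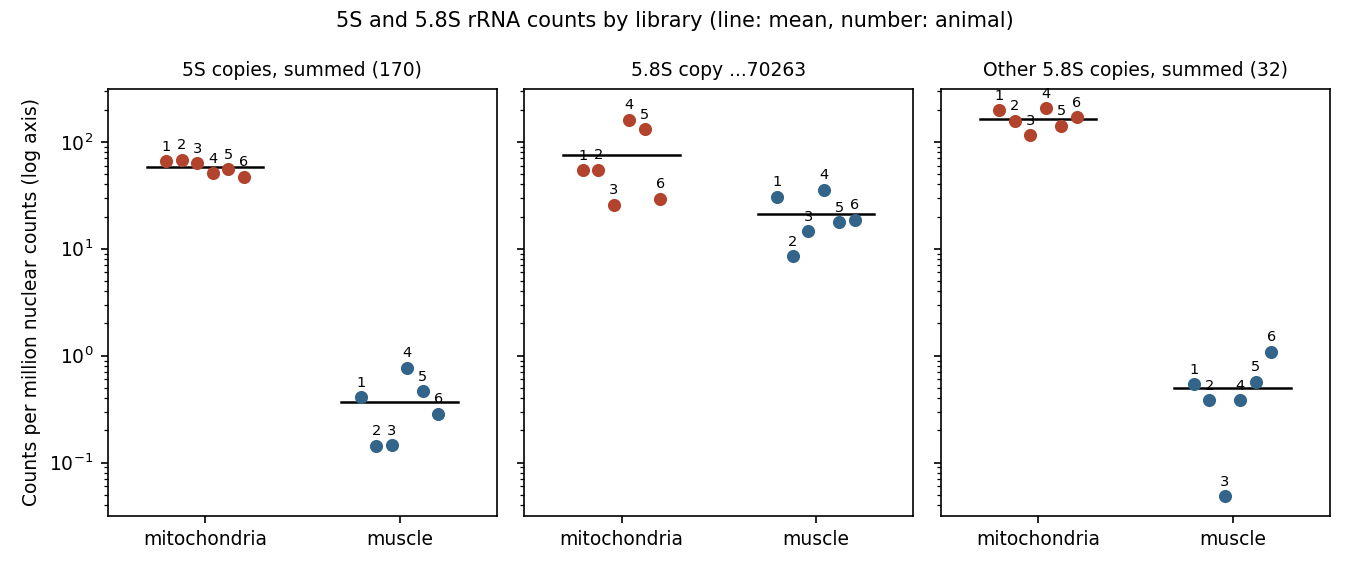
Nuclear CPM (log axis) in mitochondria and muscle libraries for the sum of 170 5S copies, the 5.8S copy ENSRNOG00000070263 and the sum of the other 32 5.8S copies, with a point per library numbered by animal and a line at the mean. Mitochondria and muscle libraries are separate in the outer panels and overlap in the middle one.

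Among those 32, the most counted in mitochondria were absent or nearly absent from muscle. ENSRNOG00000067463 had 16, 21, 7, 12, 6 and 9 counts in mitochondria and none in muscle, at least 551-fold higher. ENSRNOG00000066190 had 11, 12, 5, 12, 7 and 15 counts in mitochondria and none in muscle, at least 481-fold higher. ENSRNOG00000067403, with 7, 6, 7, 19, 6 and 8 counts in mitochondria and none in muscle, was at least 411-fold higher. All 3 had counts in every mitochondria library, which by itself separates them from an empty muscle group. Of all genes tested with edgeR, 63% were called higher in mitochondria, so this separation is not read as particular to these copies. ENSRNOG00000068370 had 57 counts in mitochondria, from 3 to 14 a library, and 3 in muscle, all in animal 6. Its ratio was 442 (95% exact interval 144 to 2207, counting error only). ENSRNOG00000069942 had 7, 11, 5, 7, 8 and 8 counts in mitochondria and 2, 0, 0, 1, 0 and 1 in muscle, and was the most even of these copies across animals, at 9.30 ± 1.96 nuclear CPM in mitochondria and 0.0353 ± 0.0402 in muscle.

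Further copies with no muscle count and counts in every mitochondria library were ENSRNOG00000064733 (44 counts), ENSRNOG00000064606 (43), ENSRNOG00000067251 (40), ENSRNOG00000069816 (39), ENSRNOG00000066911 (38), ENSRNOG00000068043 (37), ENSRNOG00000067493 (27), ENSRNOG00000064178 (24), ENSRNOG00000070998 (23), ENSRNOG00000063335 (20), ENSRNOG00000064856 (18) and ENSRNOG00000063349 (10). ENSRNOG00000068704 had 26 counts in mitochondria and 1 in muscle, and ENSRNOG00000063315 had 19 in mitochondria and 3 in muscle. Counted in some mitochondria libraries and never in muscle were ENSRNOG00000068249 (22 counts), ENSRNOG00000052008 (18), ENSRNOG00000069225 (18), ENSRNOG00000068392 (14) and ENSRNOG00000063154 (10).

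Across all genes, the quasi-likelihood test of edgeR (TMM scaling, Benjamini-Hochberg adjustment) took 24679 genes past a filter on low counts and called 93.3% of them, 63% higher and 30.3% lower in mitochondria, with a median log2 fold change of 2.51. Only 18 of the 203 copies passed that filter, 17 of 5.8S and 1 of 5S (ENSRNOG00000040652), and 185 did not. Of the 18, 17 were called higher and none lower. The call says little about the copies as a group: 13 of the 18 had no muscle count at all and passed the filter only through the mitochondria libraries, where they are high, and the background is itself mostly higher. The 4 other called copies had 1 to 4 muscle counts each, too few for the filter, and so also passed only through the mitochondria libraries. Their calls are no independent support either. Their log2 fold changes were 4.56 (ENSRNOG00000063315), 5.52 (ENSRNOG00000069942), 5.93 (ENSRNOG00000068704) and 6.12 (ENSRNOG00000068370), with edgeR adjusted p from 1.41e-12 to 3.43e-08. The copy not called was the leading copy ENSRNOG00000070263, which stood at -2.78 relative to that median. The fitted values of the 13 copies without muscle counts depend on the prior count and are no measure of size. The median of the 18 was 7.04, and 7.94 with those copies at their bounds. With the animal as a replicate block, 30 copies passed the filter. Of these, 28 were higher and 1 lower (64.1% and 28.4% of all genes in that fit). With any single muscle library left out only 4 copies passed the filter, of which 3 were higher. The filter scales its minimum count by the median library size, and in those fits it passed 20003 to 20007 genes in place of 24679.

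With no filter, 29900 genes entered the test, and 92.3% were called, 66.6% higher and 25.7% lower. Of 70 rRNA copies with any count, 61 were higher and none lower, 33 of 39 for 5S and 28 of 31 for 5.8S. Of these 70 copies, 57 had no muscle count, so most calls were made against an empty group and add no independent support. ENSRNOG00000064850, for example, was called on 2 counts in 1 mitochondria library (edgeR adjusted p = 0.0223). ENSRNOG00000064532, ENSRNOG00000069960 and the leading copy, the 3 with more raw counts in muscle, did not pass (edgeR adjusted p = 0.878, 0.869 and 0.272).

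The shallower libraries of mitochondria showed more copies than the deeper ones of muscle, as they did over all genes. Of 30560 genes, 27803 to 28708 had a count in a mitochondria library and 16931 to 17776 in a muscle library. More counted copies are therefore not particular to rRNA. As counted, the mitochondria libraries had 51.7 ± 4.63 copies with a count and the muscle libraries 6 ± 1.79 (SD, n = 6 each). At a common 573903 nuclear counts, the expected number was 45.9 ± 3.23 in mitochondria and 1.46 ± 0.218 in muscle. For 5S alone it was 19.8 ± 2.73 in mitochondria and 0.201 ± 0.123 in muscle, and for 5.8S 26.1 ± 1.02 in mitochondria and 1.26 ± 0.161 in muscle.

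Other small RNAs annotated as many copies give a scale for this. Of 796 copies named U6, a spliceosomal RNA, 95.1% had a count in mitochondria and 13.7% in muscle, and of 167 copies named U1, another, 96.4% had one in mitochondria and 32.3% in muscle. The 5.8S copies were close to both in mitochondria, at 93.9%, with 18.2% in muscle, whereas 5S stood at 22.9% in mitochondria and 4.12% in muscle. In summed nuclear CPM, U6 had 1172 ± 134 in mitochondria and 10.96 ± 1.38 in muscle, and U1 had 393 ± 43.4 in mitochondria and 7.37 ± 1.62 in muscle. The ratios of means were 107 for U6 and 53.3 for U1, beside 158 for 5S and 11.2 for all 5.8S copies. As for the 5S sum, the groups did not overlap in U6 or U1. The sum of the 26 copies named Metazoa_SRP, the RNA of the signal recognition particle, was lower in mitochondria, with 174 ± 32.3 in mitochondria and 1334 ± 530 in muscle (SD, n = 6 each). A single copy held 46.4% of its muscle counts, and copy by copy, with no filter, 11 of 26 were called higher and 13 lower by edgeR. These differences between families were not tested.

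The mitochondria libraries differ widely in how much of their counts came from the mitochondrial genome, and the rRNA copies did not follow that share in one way. In order of rising share, at 12.9%, 20.3%, 28.9%, 41.2%, 43.4% and 51.5% (animals 3, 1, 2, 5, 6 and 4), the leading 5.8S copy had 25.9, 54.0, 55.0, 130, 29.4 and 162 nuclear CPM. Animal 6 stood apart from that order, with a high share and a low level. The other 32 copies of 5.8S had 115, 197, 158, 142, 169 and 205 in the same order, with no steady trend. The 5S sum had 63.4, 66.2, 68.2, 55.4, 47.0 and 50.8, so that the libraries of the 3 lowest shares were all above those of the 3 highest.

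**Figure D4:**
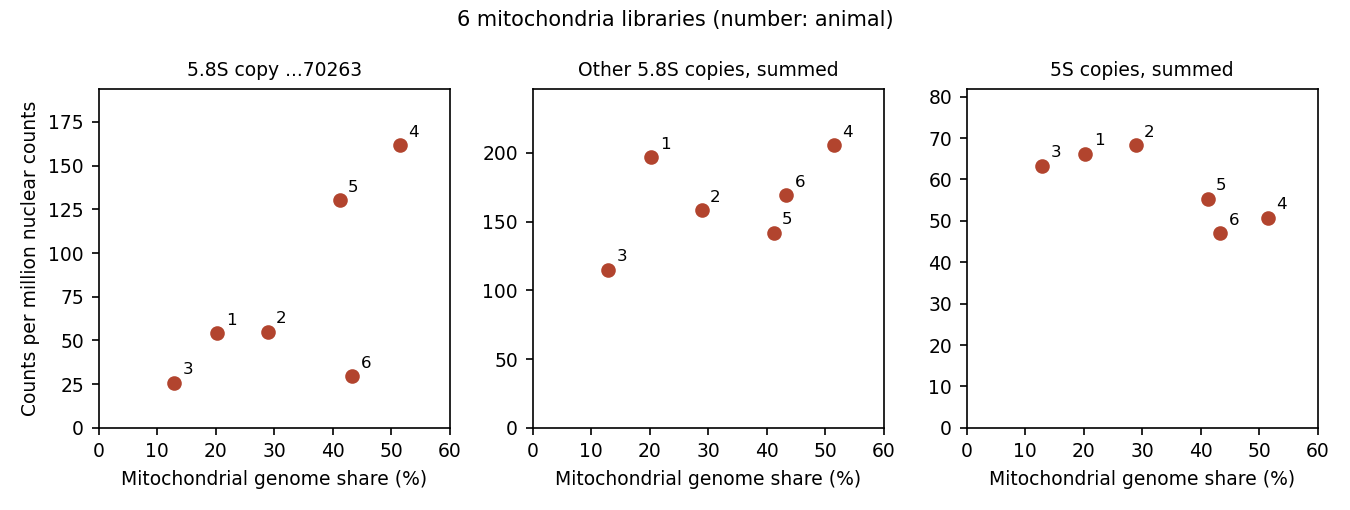
Nuclear CPM (vertical axis, from 0) against the share of counts on the mitochondrial genome (horizontal axis, percent) in the 6 mitochondria libraries, for the 5.8S copy ENSRNOG00000070263, the sum of the other 5.8S copies and the sum of 5S copies, numbered by animal. Library 6 lies low in the first panel at a share of 43.4%, and the 5S sum lies between 47.0 and 68.2.

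For the leading copy, Pearson's r with the share was 0.70 (exact permutation p = 0.150) and Spearman's rho 0.66 (exact permutation p = 0.175) over 6 libraries. Without the libraries of animals 3 and 4, the farthest from the median share, r was 0.24, and without animal 6 it was 0.97. The relation did not pass the exact test over all 6. As a description only, r was 0.49 for the other 5.8S copies (rho 0.60) and -0.81 for the 5S sum (rho -0.71). Without animals 3 and 4 these were -0.70 and -0.88.

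A slope on the share was also fitted for every nuclear gene with edgeR over the same 6 libraries. Of 21039 genes tested, 0.0333% were called, 6 rising with the share (0.0285%) and 1 falling (0.00475%). The leading copy ENSRNOG00000070263 was among the 6, with a log2 slope of 0.56 ± 0.07 per 10 percentage points (SE, edgeR adjusted p = 9.86e-12). Of the other 6 called genes, 5 carry no name in the table and the sixth, Coch, fell. The remaining 6 tested copies, all 5.8S, did not pass, with slopes from -0.16 (ENSRNOG00000067463) to 0.29 (ENSRNOG00000068370), and no 5S copy had enough counts to be tested. The call on the leading copy was lost in DESeq2 (slope 0.54, DESeq2 adjusted p = 1.000) and without animal 4 (slope 0.40, edgeR adjusted p = 0.132), and held without animal 3 (slope 0.52, edgeR adjusted p = 6.45e-05).

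For the genes that make and handle these RNAs, the medians of all 5 lists lay below the median of all genes tested, which was 2.51 with TMM and 4.61 with total counts. With total counts as library size, 93.3% of all genes tested were called, 84.3% higher and 9.03% lower, against 63% higher and 30.3% lower with TMM. Of the 71 list genes tested, 40 had opposite signs with TMM and with total counts, and 31 kept their sign. Of 22 tested genes that transcribe 5S genes (polymerase III subunits and their factors), 3 rose and 15 fell with TMM (median log2 fold change -0.44), and with total counts 19 rose and 2 fell (median 1.63), a share of higher calls near that of all genes. Maf1, a repressor of polymerase III, was the most abundant of them in muscle and had the largest absolute log2 fold change with TMM. It had 45.7 ± 7.36 nuclear CPM in mitochondria and 99.3 ± 4.50 in muscle (SD, n = 6 each), and fell by 3.29 on the log2 scale with TMM (SE 0.12, edgeR adjusted p = 3.83e-21) and by 1.19 with total counts. With total counts Polr3g, a subunit of polymerase III named here after its values were seen, changed most. It had 40.3 ± 4.34 nuclear CPM in mitochondria and 1.14 ± 0.415 in muscle (SD, n = 6 each), with a log2 fold change of 2.97 with TMM (edgeR adjusted p = 1.36e-13) and 5.06 with total counts (edgeR adjusted p = 4.82e-29).

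The list of the 5S particle held Rpl5, Rpl11, Rrs1, Rpf2, Ssb, Heatr3 and Ro60, of which only Rpl5 and Rpl11 are its ribosomal proteins. Of these 7 genes 6 fell with TMM (median -1.73), and with total counts 3 fell and 3 rose (median 0.35). Rpl5, which carries 5S rRNA to the ribosome, had 27.0 ± 6.36 nuclear CPM in mitochondria and 333 ± 42.5 in muscle, and fell by 5.74 (edgeR adjusted p = 3.04e-25), with a log2 fold change of -3.67 with total counts. The 1 that did not pass was Rpf2, at 0.10.

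All 3 import genes fell with TMM, and with total counts only Mrpl18, a protein of the mitochondrial ribosome, was called. Mrpl18 had 21.5 ± 4.84 nuclear CPM in mitochondria and 49.6 ± 4.86 in muscle, a log2 fold change of -3.37 (edgeR adjusted p = 2.97e-20) and -1.29 with total counts. Tst had 24.9 ± 6.87 in mitochondria and 20.0 ± 5.67 in muscle, and fell by 1.88 with TMM (edgeR adjusted p = 7.28e-10) but stood at 0.21 with total counts (edgeR adjusted p = 0.382). Pnpt1 had 26.2 ± 3.503 in mitochondria and 27.8 ± 4.98 in muscle, at -2.22 with TMM (edgeR adjusted p = 7.04e-16) and -0.13 with total counts (edgeR adjusted p = 0.528). Counts on these genes say nothing of the proteins.

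Of 13 genes of polymerase I and its factors 5 rose and 5 fell with TMM (median 0.01), and with total counts 11 rose and none fell (median 2.13), again near the share of all genes called higher. Those that rose, chosen for mention by their values, were Polr1e, Polr1g, Taf1a, Taf1b and Taf1c. Ubtf, which activates rRNA gene promoters, had 79.3 ± 13.7 nuclear CPM in mitochondria and 79.2 ± 8.83 in muscle (SD, n = 6 each), so that it fell by 2.15 with TMM (edgeR adjusted p = 2.30e-17) and stood at -0.03 with total counts (edgeR adjusted p = 0.877). Of 26 genes that mature 5.8S rRNA, such as subunits of the RNA exosome, 4 rose and 17 fell with TMM (median -0.69), and 24 rose and 2 fell with total counts (median 1.40, against 4.61 for all genes). Nop53, a ribosome assembly factor, fell by 2.95 (edgeR adjusted p = 7.17e-19) and by 0.86 with total counts, with 41.7 ± 12.0 nuclear CPM in mitochondria and 74.1 ± 7.23 in muscle. The 4 that rose, also chosen for mention by their values, were Exosc2, Exosc7, Exosc8 and Eri1.

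**Figure D5:**
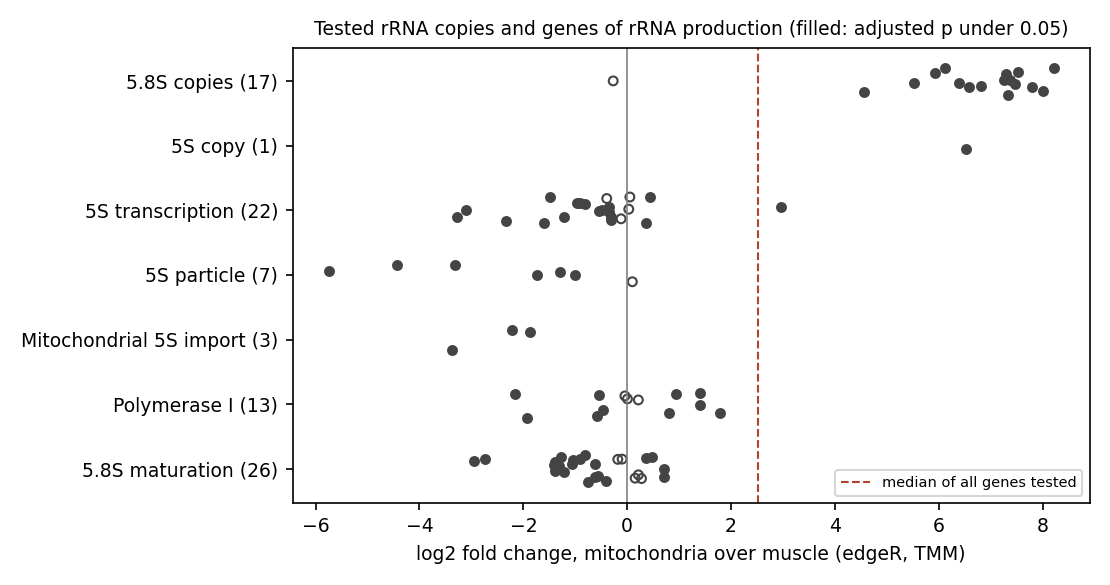
Log2 fold change of mitochondria over muscle (horizontal axis, edgeR with TMM) of the 18 tested rRNA copies and of genes in 5 lists, with filled points past an adjusted p of 0.05, the median of all genes tested as a dashed line and a grey line at 0. The places of the 13 copies without muscle counts depend on the prior count, the 4 other called copies lie between 4.56 and 6.12, and the leading 5.8S copy lies at -0.27, against 2.51 at the dashed line.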

How the data were processed

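The deposited table by the authors holds raw counts for 12 libraries, with gene names and no coordinates or lengths, so levels are compared within a gene or family and not per length. STAR 2.7.11a, HTSeq, cutadapt 4.6 and FastQC 0.74 are listed, with the build mRatBN7.2, in the processing notes of the submitters. Strand setting, treatment of multiply matching reads and annotation release: not given in the sources used here.

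Titles gave the groups. Equal replicate numbers mark the same animal, by the animal number in the labels. Deviations from the group means correlated between -0.0103 and 0.0202 within pairs. Only the muscle libraries of animals 2 and 4 correlated best with the mitochondria library of the same animal. The pairing therefore rests on the labels and is not visible in the counts. Mitochondrial genome genes, 37 in all, were those named Mt- or AY172581, and the rest counted as nuclear.

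edgeR 4.0.16 in R 4.3.3 (glmQLFTest, TMM, filterByExpr minimum count 10, no term but group, Benjamini-Hochberg, threshold 0.05) tested all genes, and a slope fit took the 6 mitochondria libraries. filterByExpr scales that minimum by the median library size, so copies with fewer counts in a mitochondria library could pass. SE comes from the log2 fold change and F. The fits were tested on simulated data with changes put only into well-counted genes, so that test does not cover rRNA copies with few counts. Permutation tests went through every grouping, sign pattern or order, and ranks, intervals and hypergeometric values came from SciPy 1.17.1. Bounds set an empty group at 3 counts. Expected copies at 573903 nuclear counts are hypergeometric. DESeq2 1.42.0, other scalings, no filter, the animal as a block and each library left out were alternatives. Named copies were every 5.8S copy with at least 10 counts, the 5 highest 5S copies of each group and the extremes of those called, and of each list the most abundant and the most changed gene. The members and lists were chosen with earlier results of these data known. Of the families listed for comparison, 7SK matched no gene name, as did Malat1 and Neat1 and, among the list genes, Bdp1 and Crcp.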

Additional observations from a re-analysis of the deposited data

Results flagged for a closer look

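In 79 sets of 6 libraries, 1 library was checked for standing far from the other 5, which chance alone gives in about 1 set in 20 of continuous values. The 6 that did were single rRNA copies with few counts, given as nuclear CPM. Among mitochondria libraries, ENSRNOG00000067493 had 10.5 in animal 1, against 3.52 to 5.77 in the others, and ENSRNOG00000064532 had 3.88 in animal 3, against 0 to 0.947. Among muscle libraries, ENSRNOG00000068370 had 0.172 and ENSRNOG00000065316 had 0.0573 in animal 6, ENSRNOG00000068704 had 0.0642 in animal 4 and ENSRNOG00000064592 had 0.0904 in animal 1, and the other 5 libraries had none. In these 4 sets any count stands apart from 5 zeros, so the chance rate does not apply to them. No sum over a family was among them.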

How the results depend on the processing

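Counts of rRNA copies called higher depend on how many pass the filter on low counts. They were 17 of 18 tested as reported, 61 of 70 with no filter and 28 of 30 with the replicate block. Of all genes in these fits, 63%, 66.6% and 64.1% were higher. When single libraries were left out they ran from 3 of 4 tested to 23 of 25. The former came with any single muscle library left out, the latter without the mitochondria library of animal 1 or 3. Of all genes, 57.4% to 63.7% were higher in those fits. Copies called lower numbered 0, 1 with the replicate block and 0 to 1 with single libraries left out, the exceptions being the leading 5.8S copy in each case. The log2 fold change of that copy, ENSRNOG00000070263, was -0.27 as reported, 0.082 in DESeq2, 0.10 with RLE size factors, 1.69 with mitochondrial genome counts as library size and 1.73 with total counts. With single libraries left out it ran from -0.67 without the mitochondria library of animal 4 to 0.017 without the muscle library of animal 1, and it was 0.0085 without the muscle library of animal 4. In those fits over all 12 libraries the median of all genes tested was higher, from 2.51 as reported to 4.81 with mitochondrial genome counts.

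Over all genes, 15544 were higher and 7470 lower, with 20795 higher (84.3%) and 2228 lower by total counts, 19614 higher (80.7%) and 1071 lower by mitochondrial genome counts as library size, and 11478 to 16363 higher and 6925 to 7514 lower with single libraries left out. Of the 71 pathway genes, whose higher calls by these scalings are near the shares of all genes, 12 were higher and 46 lower, with 21 higher in DESeq2 and with RLE, 57 higher and 8 lower with total counts, 53 higher and 2 lower by mitochondrial genome counts, and 10 to 15 and 40 to 47 with single libraries left out. Scaled by mitochondrial genome counts, Tst stood at 0.48, Pnpt1 at 0.25 and Ubtf at 0.39, and Tst at 0.21 with total counts. The cause was not tested.

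For the slope on the mitochondrial genome share, 6 genes rose and 1 fell. In DESeq2 1 rose and 0 fell, with all counts as library size 27 rose, and with single libraries left out 3 to 8 rose and 0 to 1 fell, with 3 without replicate 3. Of rRNA copies 1 was called, 0 in DESeq2, and 0 to 1 with single libraries left out.

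The log2 ratio of the 5S sum was 7.31, 8.44 without the copy leading in muscle and 7.14 to 7.66 with single libraries left out. For 5.8S it was 3.49, 8.35 and 3.33 to 3.70, for U6 6.74, 7.24 and 6.69 to 6.79, for U1 5.73 and 5.68 to 5.83, and for Metazoa_SRP -2.94, -2.30 and -3.06 to -2.72. Per mitochondrial genome counts U6 was at 7.01 and U1 at 5.996. The difference in expected copies at a common depth was 44.4, or 18.3 for copies with at least 3 counts and 43.6 to 45.2 with single libraries left out. Depth limits the values of single copies, of which the 5S copies had at most 22 counts over the 6 mitochondria libraries, and differences among copies were not tested.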
